A study of Mus musculus with 20 samples.

Results

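A set of 10 genes of neutrophil attraction and neutrophil identity was followed through RNA sequencing of 20 CT26 tumours; CT26 cells derive from a colon carcinoma of the BALB/c mouse. They are the chemokine genes Cxcl1, Cxcl2, Cxcl3 and Cxcl5, the receptor gene Cxcr2, the growth factor gene Csf3 with its receptor gene Csf3r, the alarmin genes S100a8 and S100a9, and the cytokine gene Il1b. All 10 were found by Ensembl identifier among the 55335 genes listed, and 9 reached the level set for testing, at least 1 FPKM (fragments per kilobase of transcript, scaled to sequencing depth) in at least 5 libraries. Csf3 did not. The 4 groups held 5 tumours each. They were tumours of the mutant cells given anti-PD-1, mutant tumours given PBS, vector tumours given anti-PD-1, and vector tumours given PBS. Every group shares the CT26 line, so vector tumours are tumours too and no normal tissue was measured. The labels call the mutant POLE, while the series title names CHEK2, and the cells are called mutant here. The labels name no separate clones, no animal age and no dose or time of antibody, so an effect of the mutation and any other difference of the cells that carry it cannot be told apart.

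Cxcl1, Cxcl2, Cxcl3 and Cxcl5 carry a short motif, glutamate, leucine and arginine, before their first cysteines, and in the mouse they draw neutrophils through the receptor CXCR2. Epithelial, stromal and myeloid cells make them when interleukin-1 or tumour necrosis factor switches on the transcription factor NF-kappaB. Granulocyte colony-stimulating factor, the product of Csf3, drives neutrophil production in the marrow, and S100A8 and S100A9 are among the most abundant proteins of the neutrophil cytosol. In a whole tumour, RNA of the carcinoma cells and RNA of infiltrating cells are mixed, so which cells made a transcript was not measured, and fewer cells of a type and less RNA per cell cannot be told apart.

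The 4 chemokine genes lie together on mouse chromosome 5 (mm10), Cxcl5 at 90759360 to 90761624, Cxcl3 at 90786103 to 90789600, Cxcl1 at 90891241 to 90893115 and Cxcl2 at 90903871 to 90905938, all on the forward strand. Their promoters are shown because these genes are described together below. The 100 bases before the start (the more upstream of the GENCODE and RefSeq starts), from RefSeq on GRCm38.p6, are given 5′ to 3′ for Cxcl1, Cxcl2 and Cxcl3. Capitals mark GGGAATTTCCC, the longest stretch that the 250 bases upstream share in all 3 genes, which has the form of an NF-kappaB site and begins 67, 69 and 73 bases before the start.
Cxcl1, chr5:90891141-90891240, forward strand: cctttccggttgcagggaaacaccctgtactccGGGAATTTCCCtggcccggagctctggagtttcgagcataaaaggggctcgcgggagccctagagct
Cxcl2, chr5:90903771-90903870, forward strand: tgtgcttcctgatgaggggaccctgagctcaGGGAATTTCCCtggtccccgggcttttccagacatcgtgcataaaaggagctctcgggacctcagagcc
Cxcl3, chr5:90786001-90786100, forward strand: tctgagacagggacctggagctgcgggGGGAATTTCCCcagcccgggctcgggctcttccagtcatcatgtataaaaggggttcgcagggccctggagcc

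That stretch of 11 bases was chosen from these windows, so its presence in them is no result. It was searched on both strands of windows from 250 bases before to 50 after the start. It was in 3 of the 8 windows of these genes that the table holds, and in 14 of all 32851 windows, 0.0426%. Its letters are not in the windows of Cxcr2, Csf3r, S100a8, S100a9 and Il1b. Cxcl2 and Cxcl3 transcripts also share 126 identical stretches of 50 bases, and no other pair of the 10 genes shares any. How reads that match both were counted is not given in the sources used here, so the single values of Cxcl2 and Cxcl3 are uncertain.

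The libraries held totals of 328740 to 566913 FPKM. Vector anti-PD-1 replicate 1 and mutant anti-PD-1 replicates 1 and 2 correlated least with the rest, at mean Spearman values of 0.776, 0.748 and 0.835, against 0.899 to 0.930 in the other 17. Vector anti-PD-1 replicate 1 also had the highest total, the fewest genes at 1 FPKM or more (11182, against 12474 to 13769 in the others) and 2.85% of its FPKM in mitochondrial genes, against 6.43% to 11.1%. All 3 carry a mouse identifier of M and a number, a style used in 11 libraries (9 have a number alone), and what the style marks is not stated. Mutant anti-PD-1 replicates 1 and 2 are the M-style tumours of their group, and replicates 3 to 5 the number-only ones. For that group, the subsets by style and the fits without these 3 libraries therefore part the same tumours and are not separate checks. Of the carcinoma markers, Epcam reached at most 0.840 FPKM, Cdh1 0.638 and Cldn7 0.578, while Krt18 stood at 0.572 to 22.6 FPKM and the proliferation gene Mki67 at 15.1 to 58.8.

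The 10 genes differed in abundance by orders of magnitude. S100a9 was the most abundant in every group, with means from 28.6 FPKM in vector anti-PD-1 tumours to 142 FPKM in mutant anti-PD-1 tumours, and Csf3 stayed at or under 0.603 FPKM throughout. The plot of levels shows that the tumours of a group were often further apart than the groups were.

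**Figure D1:**
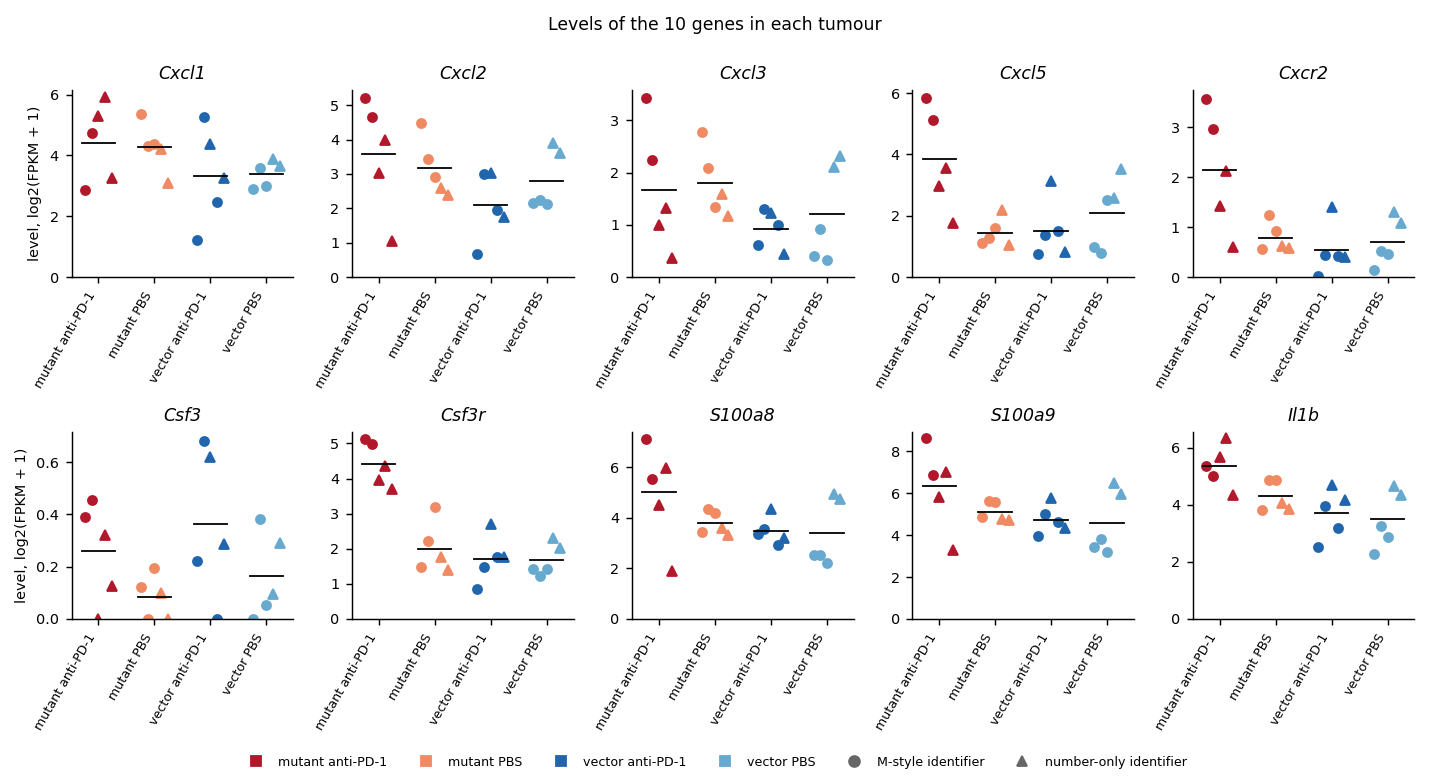
Level of each gene in each tumour as log2(FPKM + 1), by group, with circles for M-style and triangles for number-only identifiers and a black line at the group mean. The 5 mutant anti-PD-1 tumours stand above all others only for Csf3r, at 12.1 to 33.6 FPKM, and are spread widely for Cxcl5, Cxcr2, S100a8 and S100a9.

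The ligands came first in the comparison. Cxcl1 encodes KC, a main neutrophil attractant of the mouse. It measured 6.22, 25.9, 38.8, 59.4 and 8.57 FPKM in mutant anti-PD-1 tumours and 40.2, 19.0, 19.9, 17.4 and 7.52 FPKM in mutant PBS tumours. In vector anti-PD-1 tumours it measured 1.32, 37.2, 19.7, 4.54 and 8.68 FPKM, and in vector PBS tumours 6.43, 11.1, 6.94, 13.8 and 11.7 FPKM. The 4 groups overlapped. The mutant tumours averaged 27.8 ± 22.1 FPKM under anti-PD-1 and 20.8 ± 11.9 under PBS, and the vector tumours 14.3 ± 14.6 and 9.97 ± 3.17 FPKM (SD, n = 5). No comparison of Cxcl1 passed the threshold, at log2 fold changes of 1.03 ± 0.668 (SE) for mutant against vector under anti-PD-1 (adjusted p = 0.254) and 0.87 ± 0.661 under PBS (adjusted p = 0.741). Anti-PD-1 against PBS gave 0.07 in mutant tumours (adjusted p = 0.948) and -0.09 in vector tumours (adjusted p = 0.963).

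Cxcl2 encodes MIP-2, another CXCR2 ligand. Its levels were 36.1, 24.5, 7.16, 15.0 and 1.07 FPKM in mutant anti-PD-1 tumours and 21.2, 9.84, 6.50, 5.07 and 4.25 in mutant PBS tumours. Vector tumours held 0.603, 6.99, 7.23, 2.90 and 2.38 FPKM with anti-PD-1 and 3.45, 3.72, 3.32, 13.8 and 11.2 with PBS. The highest and the lowest mutant anti-PD-1 tumour differed 33.7-fold, and the groups overlapped. Mutant against vector under anti-PD-1 gave a log2 fold change of 1.57 ± 0.671 (SE) that did not pass (adjusted p = 0.0814). It passed without mutant anti-PD-1 replicate 5, the tumour at 1.07 FPKM, or without vector anti-PD-1 replicate 3 (adjusted p = 0.00889 and 0.0462). It was 3.06 within M-style libraries alone (adjusted p = 0.00496) and 0.29 within number-only libraries (adjusted p = 0.823). Without the 3 libraries that stand apart, the value for anti-PD-1 against PBS in mutant tumours was -0.56, against 0.49 with them, and neither passed (adjusted p = 0.633 and 0.615).

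Cxcl3, which encodes a further ligand of CXCR2, was low. It spanned 0.294 to 9.73 FPKM in mutant anti-PD-1 tumours and 1.26 to 5.81 in mutant PBS tumours, with 0.364 to 1.45 in vector anti-PD-1 and 0.246 to 3.97 in vector PBS tumours. Its log2 fold changes lay between -0.30 and 0.81 in the 4 comparisons of groups, and none passed. Mutant against vector under anti-PD-1, 0.81 over all libraries (adjusted p = 0.235), was 1.87 within M-style libraries, where it passed (adjusted p = 0.0126), 0.053 within number-only libraries (adjusted p = 0.927) and -0.23 without the 3 libraries (adjusted p = 0.803).

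Cxcl5 encodes LIX, a ligand known from epithelial and stromal cells of the mouse. Mutant anti-PD-1 tumours held 56.4, 34.1, 6.81, 10.7 and 2.42 FPKM, against 1.15, 1.42, 2.02, 3.59 and 1.06 FPKM in mutant PBS tumours. Vector tumours held 0.685, 1.59, 7.72, 1.83 and 0.763 FPKM with anti-PD-1 and 0.983, 0.738, 4.66, 4.95 and 10.6 with PBS. Replicates 1 and 2 of mutant anti-PD-1 were the 2 highest of all 20 tumours, while replicate 5 lay inside the range of mutant PBS. Cxcl5 was higher in mutant than in vector tumours under anti-PD-1, with a log2 fold change of 2.34 ± 0.685 (SE; limma adjusted p = 0.0139), and higher with anti-PD-1 than with PBS in mutant tumours, by 2.41 ± 0.685 (adjusted p = 0.0129).

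Both calls for Cxcl5 rest on mutant anti-PD-1 replicates 1 and 2. Without replicate 1 the values were 1.73 and 1.80 (adjusted p = 0.068 and 0.0672), and without replicate 2 they were 1.95 and 2.02 (adjusted p = 0.0609 and 0.0552). Without the 3 libraries that stand apart they were 0.64 and 0.82 (adjusted p = 0.506 and 0.375). Within M-style libraries alone the values were 4.28 and 4.16 (adjusted p = 0.000815 and 0.00171), and within number-only libraries 0.79 and 1.14 (adjusted p = 0.507 and 0.295). The same pair of tumours stood apart in other cell type markers. The summed level of 7 fibroblast markers was 2400 and 1517 FPKM in replicates 1 and 2, against 327, 368 and 285 in replicates 3 to 5, 106 to 415 in mutant PBS, 155 to 491 in vector anti-PD-1 and 209 to 471 in vector PBS tumours. Of these 7 markers 6 rose with anti-PD-1 in mutant tumours and 0 without the 3 libraries, beside 15.9% and 10.6% of all genes. The 10 macrophage markers summed to 4991 and 4355 FPKM in replicates 1 and 2 and to 1940 to 2313 in the other 3. The 6 endothelial markers summed to 122.4 and 87.0 FPKM in replicates 1 and 2 and to at most 37.1 in the other 18 tumours. The sum of the 7 genes listed as carcinoma markers was lowest there, at 16.9 and 31.1 FPKM, against 46.5 to 72.5 in the other 18. That sum includes the proliferation gene Mki67, so it is no measure of carcinoma content alone. The part of these cell type markers in the Cxcl5 result was not tested. With the level of 10 skeletal muscle markers as a term in the fit, neither call for Cxcl5 passed. Those 10 markers summed to 96.9 to 1611 FPKM in mutant anti-PD-1 and 0.519 to 1079 in mutant PBS tumours. They summed to 0.936 to 529 FPKM in vector anti-PD-1 and 1.40 to 9.62 in vector PBS tumours. Why the calls were lost with this term was not tested.

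The plot of the ligand make-up shows which transcript dominated. Summed over the 4 ligands, FPKM ran from 12.4 to 108 (median 86.6) in mutant anti-PD-1 tumours and from 14.1 to 68.4 (median 29.9) in mutant PBS tumours. It ran from 3.13 to 47.2 (median 12.2) in vector anti-PD-1 and from 11.2 to 37.4 (median 16.5) in vector PBS tumours. Cxcl1 was the most abundant ligand in 3 of 5 mutant anti-PD-1, 5 of 5 mutant PBS, 5 of 5 vector anti-PD-1 and 4 of 5 vector PBS tumours. Cxcl5 led in mutant anti-PD-1 replicates 1 and 2, with 52.0% and 38.7% of the sum, and Cxcl2 led by a small margin in vector PBS replicate 4, with 38.6% against 38.4% for Cxcl1. Cxcl1 made up 5.74% of the sum in mutant anti-PD-1 replicate 1 and between 68.6% and 72.2% in replicates 3 to 5.

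**Figure D2:**
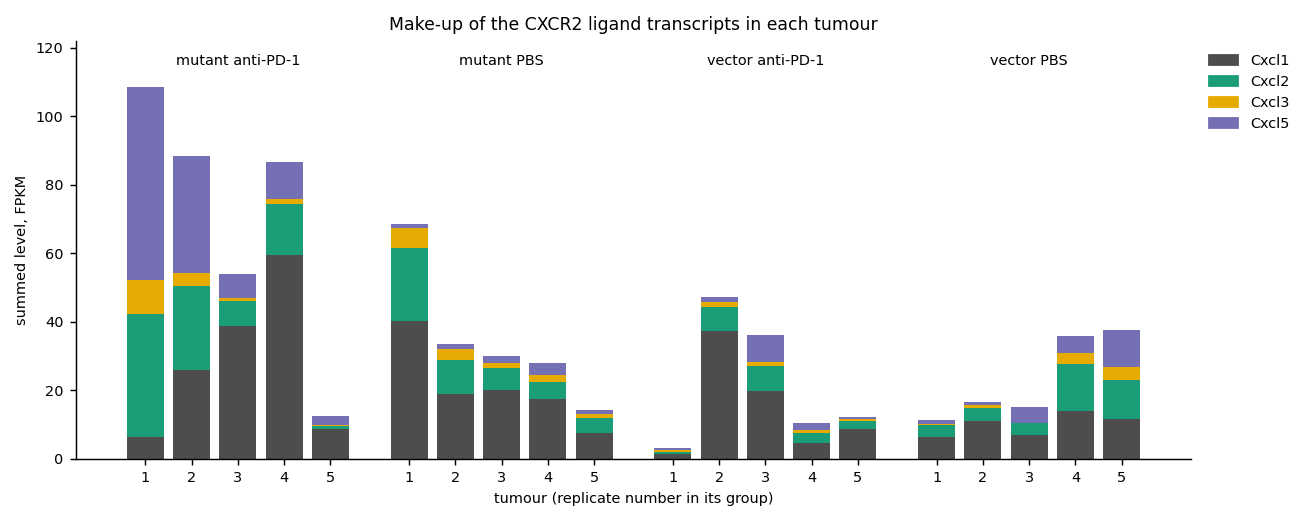
Stacked FPKM of Cxcl1, Cxcl2, Cxcl3 and Cxcl5 in each tumour, by group and replicate number. The tallest bar, mutant anti-PD-1 replicate 1 at 108 FPKM, is mostly Cxcl5, whereas mutant anti-PD-1 replicate 4, at 86.6 FPKM, is mostly Cxcl1.

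The receptor genes were compared next. Cxcr2 encodes the receptor by which neutrophils read these ligands. It measured 10.8, 6.80, 1.70, 3.36 and 0.517 FPKM in mutant anti-PD-1 tumours and 0.482, 1.35, 0.884, 0.536 and 0.491 in mutant PBS tumours. Vector tumours held 0.0208, 0.352, 1.65, 0.330 and 0.317 FPKM with anti-PD-1 and 0.0967, 0.443, 0.368, 1.48 and 1.13 with PBS. In mutant anti-PD-1, 4 of 5 tumours were above every mutant PBS and vector tumour, and replicate 5 was not. The log2 fold change was 1.64 ± 0.423 (SE) for mutant against vector under anti-PD-1 (adjusted p = 0.00649) and 1.39 ± 0.423 for anti-PD-1 against PBS in mutant tumours (adjusted p = 0.0188). The second call was lost without mutant anti-PD-1 replicate 1 (0.98, adjusted p = 0.0956) or replicate 2 (1.17, adjusted p = 0.0721). It was also lost with the skeletal muscle term. Without the 3 libraries the values were 0.56 and 0.41 and neither passed (adjusted p = 0.303 and 0.46). The values were 2.97 and 2.36 among M-style libraries (adjusted p = 0.000603 and 0.00171) and 0.48 and 0.79 among number-only libraries (adjusted p = 0.473 and 0.208).

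Csf3r encodes the granulocyte colony-stimulating factor receptor, which neutrophils and their precursors carry and monocytes carry to a lesser degree. Its levels were 33.6, 30.4, 14.6, 19.4 and 12.1 FPKM in mutant anti-PD-1 tumours and 1.78, 3.67, 8.09, 2.37 and 1.63 in mutant PBS tumours. Vector tumours held 0.812, 1.77, 5.56, 2.40 and 2.41 FPKM with anti-PD-1 and 1.68, 1.34, 1.70, 3.96 and 3.08 with PBS. The lowest mutant anti-PD-1 tumour was above the highest of every other group, and Csf3r was the one gene of the 10 for which that held. Among all 13982 genes tested, 12.1% lay higher without overlap in mutant than in vector tumours under anti-PD-1, and 11.1% higher without overlap with anti-PD-1 than with PBS in mutant tumours. The shares that were lower without overlap were 7.83% and 11.8%, and none of the 9 genes was among them. Under PBS 3.3% of all genes were higher without overlap in mutant than in vector tumours, and in vector tumours 0.501% were lower without overlap with anti-PD-1 than with PBS, in each case none of the 9.

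Csf3r rose by 2.71 ± 0.382 (SE) on the log2 scale in mutant against vector tumours under anti-PD-1 (adjusted p = 4.86e-05) and by 2.42 ± 0.382 with anti-PD-1 in mutant tumours (adjusted p = 0.000156). Anti-PD-1 against PBS in vector tumours gave 0.03 ± 0.378 (adjusted p = 0.977). The response in mutant tumours exceeded that in vector tumours by 2.39 ± 0.538 (SE, adjusted p = 0.0113), the one such difference among the 9 genes past the threshold. Within M-style libraries alone the first 2 values were 3.68 and 2.75 (adjusted p = 0.000884 and 0.00337), and within number-only libraries 1.77 and 2.43 (adjusted p = 0.00435 and 0.00079). Without the 3 libraries that stand apart they were 1.97 and 1.87 (adjusted p = 0.00475 and 0.00612), and the difference of the responses no longer passed (adjusted p = 0.0986). Markers of several other cell types moved with Csf3r. All 10 macrophage markers rose in both comparisons, with and without the 3 libraries, and their sum was 1940 to 4991 FPKM in mutant anti-PD-1, 437 to 1254 in mutant PBS, 452 to 1206 in vector anti-PD-1 and 542 to 891 in vector PBS tumours. The 7 T cell markers summed to 99.3 to 173 FPKM in mutant anti-PD-1, 2.05 to 53.7 in mutant PBS, 3.72 to 11.8 in vector anti-PD-1 and 0.347 to 2.87 in vector PBS tumours. The 7 mast cell and basophil markers summed to 129 to 204 FPKM in mutant anti-PD-1, 9.59 to 124 in mutant PBS, 10.5 to 50.4 in vector anti-PD-1 and 11.9 to 71.6 in vector PBS tumours. All tested markers of both lists rose in both comparisons, 7 of 7 and 5 of 5, and 4 of 4 and 5 of 5 without the 3 libraries. Of all genes tested, 17.8% were higher under anti-PD-1 and 15.9% in mutant tumours (10.1% and 10.6% without the 3 libraries). The part of these other cell types in the Csf3r result was not tested.

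Csf3, the growth factor gene itself, was at the edge of detection. It was 0.309, 0.371, 0, 0.248 and 0.0916 FPKM in mutant anti-PD-1 tumours and 0.0878, 0, 0.146, 0.0713 and 0 in mutant PBS tumours. Vector tumours were at 0.165, 0.603, 0.538, 0 and 0.221 FPKM with anti-PD-1 and at 0, 0.304, 0.0368, 0.0671 and 0.223 with PBS. Every group held a tumour listed at 0, and the groups overlapped. By an exact permutation test, two-sided, each comparison being 5 tumours against 5, p was 0.524 for mutant against vector under anti-PD-1, 0.373 under PBS, 0.0952 for anti-PD-1 against PBS in mutant and 0.238 in vector tumours, with adjusted p from 0.381 to 0.524. The smallest p that 252 arrangements allow is 0.00794.

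S100a8 and S100a9 encode the paired calcium-binding alarmins of neutrophils and monocytes. S100a8 measured 139, 45.6, 21.6, 62.3 and 2.70 FPKM in mutant anti-PD-1 tumours and 9.97, 19.3, 17.0, 11.2 and 8.96 in mutant PBS tumours. In vector tumours it measured 9.17, 10.9, 19.1, 6.62 and 8.09 FPKM with anti-PD-1 and 4.80, 4.84, 3.67, 30.0 and 25.5 with PBS. In mutant anti-PD-1, 4 of 5 tumours lay above every mutant PBS tumour, and replicate 5 was the lowest of all 20. S100a9 ranked the mutant anti-PD-1 tumours in the same order, at 399, 118, 55.4, 128 and 8.84 FPKM, against 28.6, 48.8, 46.1, 26.4 and 25.6 in mutant PBS tumours. Vector tumours held 14.5, 31.5, 54.5, 23.3 and 19.1 FPKM of S100a9 with anti-PD-1 and 9.94, 12.96, 8.04, 87.2 and 60.7 with PBS. Vector PBS replicates 4 and 5, both with number-only identifiers, stood above the other 3 tumours of that group for both genes. Blood in the samples varied too. The 7 red blood cell and platelet markers summed to 1715, 253, 305, 382 and 62.8 FPKM in mutant anti-PD-1 tumours. They summed to 98.3 to 483 in mutant PBS, 139 to 1244 in vector anti-PD-1 and 176 to 663 in vector PBS tumours. Vector PBS replicates 4 and 5 were at 305 and 388 FPKM, against 663 in replicate 1. The part of blood in the alarmin levels was not tested.

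Neither alarmin gene passed in any comparison over all libraries. Mutant against vector under anti-PD-1 gave log2 fold changes of 1.53 ± 0.748 (SE) for S100a8 (adjusted p = 0.126) and 1.58 ± 0.790 for S100a9 (adjusted p = 0.135). Anti-PD-1 against PBS in mutant tumours gave 1.22 for S100a8 (adjusted p = 0.229) and 1.20 for S100a9 (adjusted p = 0.265). These values moved both ways when 1 tumour was left out. Without mutant anti-PD-1 replicate 5, S100a8 was at 2.28 and 1.97 (adjusted p = 0.00561 and 0.0144) and S100a9 at 2.31 and 1.93 (adjusted p = 0.011 and 0.0305). Without 1 other tumour the values were as low as 0.86 and 0.56 for S100a8 and 0.85 and 0.47 for S100a9, and none passed. Without the 3 libraries that stand apart, S100a8 with anti-PD-1 against PBS in mutant tumours was at -0.14 (adjusted p = 0.925) and S100a9 at -0.24 (adjusted p = 0.877). Within M-style libraries alone both passed in both comparisons, S100a8 at 3.06 and 2.35 (adjusted p = 0.00144 and 0.00535) and S100a9 at 3.24 and 2.41 (adjusted p = 0.00183 and 0.00782). Within number-only libraries S100a8 was at 0.37 and 0.66 and S100a9 at 0.32 and 0.62, and none passed.

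Il1b encodes interleukin-1 beta, which activated neutrophils, monocytes and macrophages make and which induces the ligand genes. It measured 39.9, 31.5, 49.6, 80.1 and 19.1 FPKM in mutant anti-PD-1 tumours and 13.2, 28.1, 28.2, 15.8 and 13.4 in mutant PBS tumours. In vector tumours it measured 4.73, 14.5, 24.5, 8.12 and 17.0 FPKM with anti-PD-1 and 3.89, 8.54, 6.29, 24.3 and 19.4 with PBS. Replicate 5 was again the lowest mutant anti-PD-1 tumour and the one that overlapped the other groups. Il1b rose by 1.51 ± 0.435 (SE) on the log2 scale in mutant against vector tumours under anti-PD-1 (adjusted p = 0.0127). Anti-PD-1 against PBS in mutant tumours gave 0.92 ± 0.435, which did not pass (adjusted p = 0.118), and it passed without mutant anti-PD-1 replicate 5 (1.22, adjusted p = 0.0316). The rise under anti-PD-1 did not pass without the 3 libraries (1.12, adjusted p = 0.171) or with the skeletal muscle term. It was 1.97 among M-style libraries (adjusted p = 0.011) and 1.02 among number-only libraries (adjusted p = 0.184).

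Counted together, 4 of the 9 tested genes rose in mutant against vector tumours under anti-PD-1 (Cxcl5, Cxcr2, Csf3r and Il1b), where 32.9% of all genes tested passed in either direction and 17.8% were higher. With anti-PD-1 against PBS in mutant tumours 3 rose (Cxcl5, Cxcr2 and Csf3r), against 30.5% of all genes in either direction and 15.9% higher. The difference of the responses passed for 1 gene, Csf3r, against 9.35% of all genes, and 7.4% higher. Under PBS, mutant against vector tumours gave 0 of 9, where 1.45% of all genes passed and 0.529% were higher, and the 9 log2 fold changes lay between -0.64 for Cxcl5 and 0.87 for Cxcl1, with 0 of 9 at an unadjusted p under 0.05. Anti-PD-1 against PBS in vector tumours also gave 0 of 9, where limma called 0% of all genes (426 genes at an unadjusted p under 0.05), and the values lay between -0.71 for Cxcl2 and 0.22 for Il1b, again with 0 of 9 at an unadjusted p under 0.05. With so many genes passing in the comparisons that hold the mutant anti-PD-1 tumours, shares of 4 and 3 in 9 are not set apart from the background. Without the 3 libraries the counts under anti-PD-1 and in mutant tumours were 1 and 1, in each case Csf3r, beside 21.8% and 20.5% of all genes called in that fit. The median of the 9 log2 fold changes was 1.57 under anti-PD-1 (0.56 without the 3 libraries) and 1.20 in mutant tumours (0.41 without them), beside medians of 0.0022 and -0.10 over all genes. These comparisons share the mutant anti-PD-1 tumours.

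**Figure D3:**
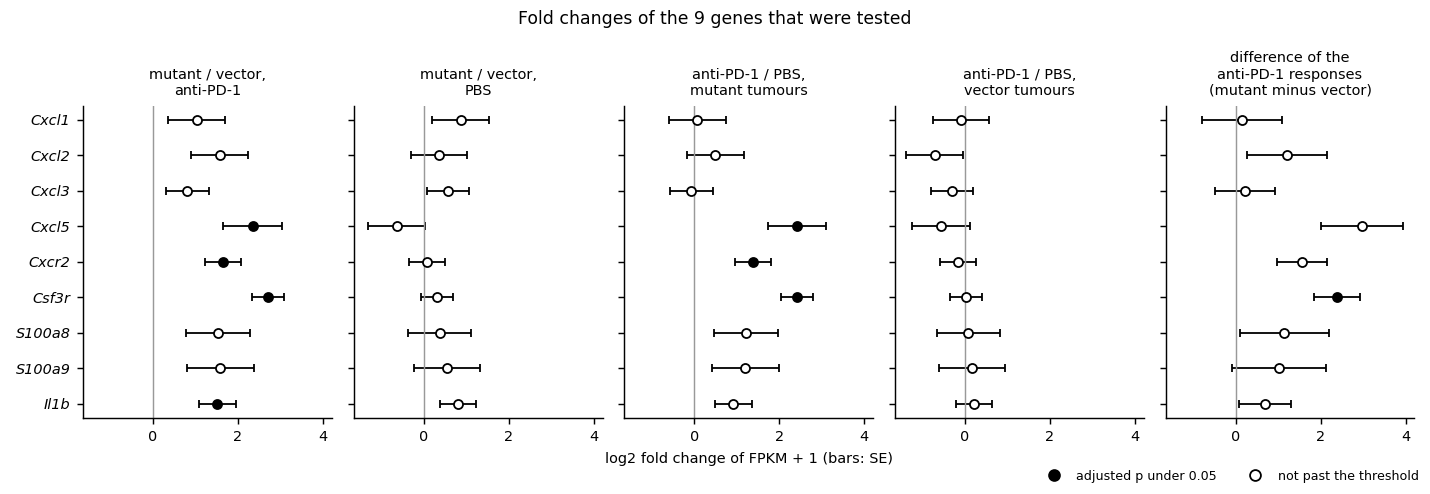
Log2 fold change of FPKM + 1 with its SE for the 9 tested genes in the 4 comparisons of groups and for the difference of the responses; filled points have an adjusted p under 0.05. Filled points appear for Cxcl5, Cxcr2, Csf3r and Il1b under anti-PD-1, for Cxcl5, Cxcr2 and Csf3r in mutant tumours, and for Csf3r in the difference.

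Whether tumours with more ligand also had more neutrophil RNA was asked within groups. Each value was taken as log2(FPKM + 1) minus its group mean, so that differences between groups play no part, and 25 pairs were formed from Cxcl1, Cxcl2, Cxcl3, Cxcl5 and Csf3 against Cxcr2, Csf3r, S100a8, S100a9 and Il1b. Across 20 tumours all 25 Pearson correlations were positive. By a two-sided permutation test within groups, adjusted over the 25 pairs, 13 passed by Pearson's r and 18 by Spearman's rho. Tumours are compared within 1 library each, and the genes of a pair share that library's scaling and tissue make-up.

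Cxcl2 gave the highest r of the 5 genes with S100a8 and S100a9, and Cxcl5 the highest with Cxcr2 and Csf3r, with no test of the differences. Cxcl2 was at r = 0.87 and rho = 0.86 with S100a9 (permutation p = 9e-05 and 4e-05, adjusted p = 0.00187 and 0.001). It stood at r = 0.84 with Cxcr2 (rho = 0.80, permutation adjusted p = 0.00187 and 0.0045) and 0.83 with S100a8 (rho = 0.74, permutation adjusted p = 0.00211 and 0.00662). Cxcl3 gave 0.84 with S100a9 and 0.80 with Cxcr2 (permutation adjusted p = 0.00211 each). Cxcl5 gave 0.87 with Cxcr2 (rho = 0.80, permutation adjusted p = 0.00211 and 0.00505) and 0.72 with Csf3r (rho = 0.77, permutation adjusted p = 0.00211 and 0.0045). Cxcl1, the most abundant ligand in most tumours, gave 0.15 with Cxcr2, 0.23 with Csf3r, 0.24 with S100a8 and 0.28 with S100a9, none of which passed (permutation adjusted p = 0.333 to 0.627). Cxcl1 did pass with Il1b, at r = 0.62 and rho = 0.61 (permutation adjusted p = 0.0105 and 0.0145). The 3 libraries that stand apart bear on the low values of Cxcl1. Without them Cxcl1 was at r = 0.65 with S100a8 and 0.63 with S100a9 (rho = 0.63 and 0.67), and both passed (permutation adjusted p = 0.0246 each), while Cxcl2 with S100a9 was at 0.84. Whether the correlations of Cxcl1 and Cxcl2 with a given gene differ was not tested. Among the 5 ligand and growth factor genes, Cxcl2 and Cxcl3 correlated at 0.88 and Cxcl1 and Cxcl5 at 0.11, and S100a8 and S100a9 correlated at 0.98.

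**Figure D4:**
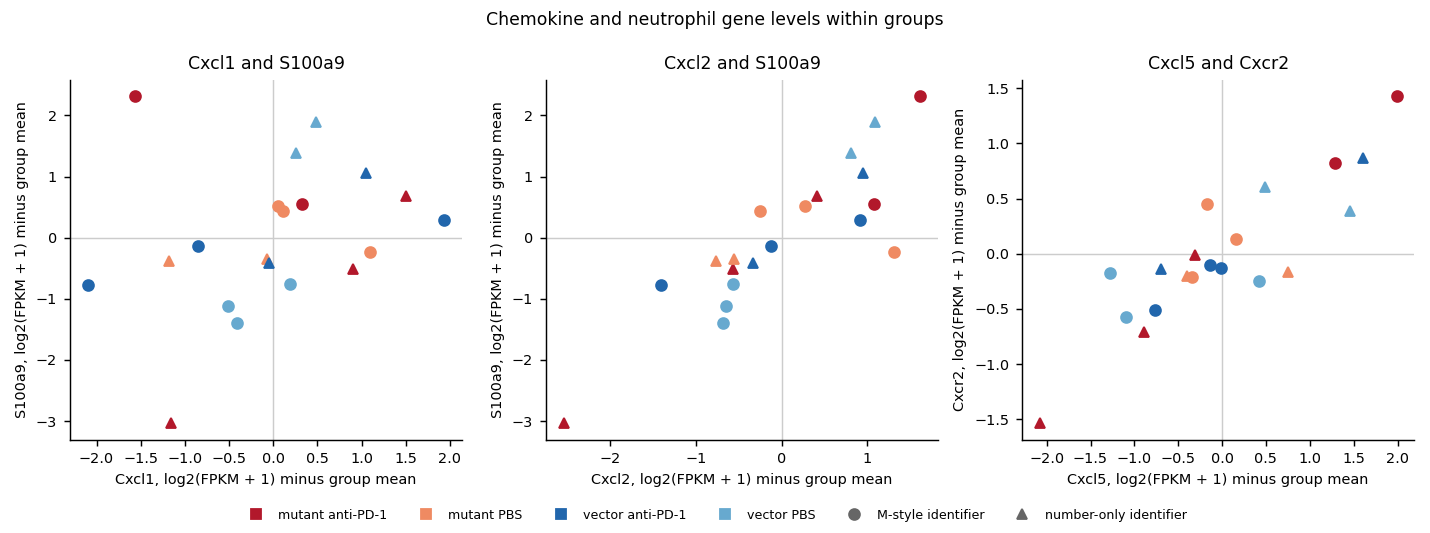
Group-centred log2(FPKM + 1) of Cxcl1 against S100a9, Cxcl2 against S100a9 and Cxcl5 against Cxcr2, 1 point per tumour, coloured by group, with circles for M-style and triangles for number-only identifiers. In the Cxcl1 panel mutant anti-PD-1 replicate 1 has the highest S100a9 and a Cxcl1 below its group mean, while in the Cxcl2 panel the same tumour is highest for both genes (r = 0.28 and 0.87 over all 20 tumours).

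These relations did not hold in every subset. Without the 2 tumours farthest from the median of the ligand, Cxcl2 with S100a9 was at 0.75 and Cxcl5 with Cxcr2 at 0.78, and 9 of 25 pairs passed. Without the mutant anti-PD-1 group r was 0.74 and 0.72 and 0 of 25 passed (lowest permutation adjusted p = 0.0558). Among the 11 M-style tumours Cxcl2 with S100a9 was at 0.35, Cxcl2 with S100a8 at 0.0054 and Cxcl5 with Cxcr2 at 0.45, and 0 of 25 passed (lowest permutation adjusted p = 0.181). Among the 9 number-only tumours the 3 values were 0.997, 0.99 and 0.81, and 0 of 25 passed either (lowest permutation adjusted p = 0.0658), in a subset with few arrangements within groups. Where a group has only 2 number-only tumours, their centred values mirror each other. These r therefore rest on few independent values and cannot be set directly against those of the M-style tumours. With both group and identifier style centred, Cxcl2 with S100a9 was at 0.77 and 0 of 25 passed (lowest permutation adjusted p = 0.0817). The pooled relation therefore does not hold within the M-style tumours at the strength seen over all tumours. No p was computed for the difference between the 2 styles.

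**Figure D5:**
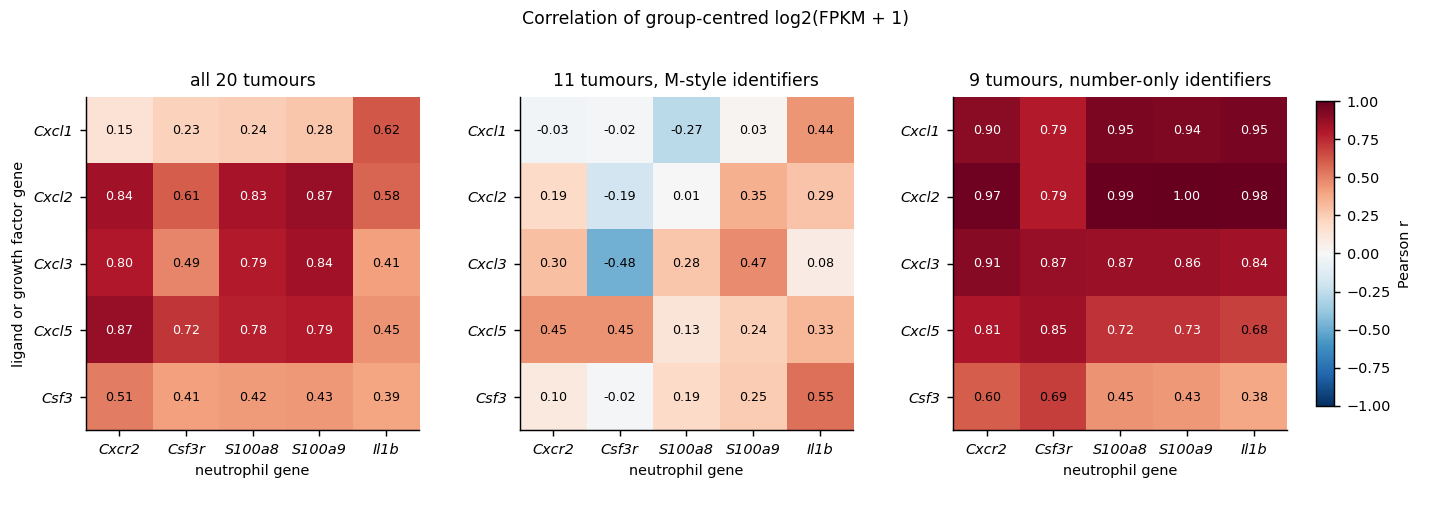
Pearson r of group-centred log2(FPKM + 1) for the 25 pairs of a ligand or growth factor gene (rows) and a neutrophil gene (columns), over all 20 tumours, the 11 M-style tumours and the 9 number-only tumours. Cxcl2 with S100a9 is at 0.87, 0.35 and 0.997 in the 3 panels, and Cxcl1 with S100a8 at 0.24, -0.27 and 0.95.

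For each of the 9, the genes most like it by group-centred correlation over the 20 tumours were named by rank. Genes of the set itself, and genes with a Gm or Rik symbol, were left out of the ranking. S100a8 and S100a9 correlated with each other at 0.98, above every neighbour named here. S100a8 and S100a9 had the same 3 neighbours, Il1f9 (r = 0.94 and 0.95), Stfa2l1 (0.90 and 0.92) and G0s2 (0.88 and 0.92), and Cxcr2 had Il1r2 (0.96), Il1f9 (0.93) and Tnfsf14 (0.92). Il1b was nearest to Rab44, Hcar2 and Il1a at 0.85 to 0.90. Cxcl1 was nearest to Gpr137b, Ndrg1 and Ero1l, each at 0.93. Cxcl5 was nearest to Col5a3, Tmem45a and S1pr3 at 0.93 to 0.94, Cxcl2 to Plekhm2, Vat1 and Lims2 at 0.90 to 0.91, and Cxcl3 to Arl8a, Grasp and Fam214b at 0.89. Csf3r was nearest to Kif21b, Esyt1 and Chst11 at 0.92 to 0.93, none of which is among the 3 named for S100a8 or S100a9. Csf3r itself correlated with S100a8 at 0.68, with S100a9 at 0.73 and with Cxcr2 at 0.78. The ranking includes the 3 libraries that stand apart and was not repeated without them.

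The wider neutrophil gene set was read beside the 10. Of 26 tested mature neutrophil markers 16 rose with anti-PD-1 in mutant tumours and 0 fell, beside 15.9% of all genes higher and 14.6% lower, with a median log2 fold change of 1.23. In the fit that leaves out the 3 libraries 9 of 25 rose and 1 fell (median 0.82), beside 10.6% and 9.9% of all genes. The same 2 pairs of shares over all genes are the background of every list count that follows for this comparison. Markers of other cells rose there too, 10 of 10 of macrophages, 6 of 8 of monocytes, 7 of 7 of T cells and 5 of 5 of mast cells and basophils, and their part in these counts was not tested. Under anti-PD-1, 19 of 26 were higher in mutant than in vector tumours, beside 17.8% of all genes (9 of 25 without the 3 libraries, with 1 lower, beside 10.1% and 11.7%). The 4 with the smallest p in mutant tumours were the formyl peptide receptors Fpr2 and Fpr1, which sense bacterial and mitochondrial peptides, the atypical chemokine receptor Ccrl2 and the selectin ligand Selplg. Fpr1 averaged 24.1 ± 14.2 FPKM in mutant anti-PD-1 and 2.58 ± 1.31 in mutant PBS tumours (SD, n = 5; log2 fold change 2.74, adjusted p = 1.71e-05). These 4 genes are also known from monocytes and macrophages. Of genes more restricted to neutrophils, Ly6g was listed at 0 in 2 of 5 mutant anti-PD-1, 3 of 5 mutant PBS, 2 of 5 vector anti-PD-1 and 5 of 5 vector PBS tumours, and reached at most 1.66 FPKM. Markers that did not pass in mutant tumours included Retnlg, Mmp8, Mmp9, Trem1, G0s2, Il1f9, Hcar2, Wfdc17 and Cd33, with log2 fold changes from -0.17 for Trem1 to 1.38 for Hcar2. Among those that rose was Sorl1, at 1.29 to 3.52 FPKM in mutant anti-PD-1 and 0.273 to 1.11 FPKM in mutant PBS tumours.

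Of the granule and oxidase genes 8 of 11 rose and 0 fell with anti-PD-1 in mutant tumours (7 of 11 and 0 without the 3 libraries). Those 8 included Ncf1, Ncf4 and Cybb, subunits of the NADPH oxidase of neutrophils and macrophages, and Lyz2, a lysozyme of both. Cybb averaged 74.7 ± 14.3 FPKM in mutant anti-PD-1 and 14.9 ± 12.6 in mutant PBS tumours (SD, n = 5). The primary granule genes of neutrophil precursors differed among themselves. Ctsg, which encodes cathepsin G and is also made by mast cells, was at 1.04 to 4.69 FPKM (median 1.18) in mutant anti-PD-1 and at 0 to 1.19 FPKM (median 0.177) in mutant PBS tumours, and it rose by 1.18 on the log2 scale (adjusted p = 0.00731). Prtn3 reached 1.53 FPKM, Mpo 0.405 and Elane 0.410, all 3 in mutant anti-PD-1 tumours, and none of these 3 reached the level set for testing.

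Signals upstream of the ligands were counted in the same comparison, anti-PD-1 against PBS in mutant tumours. In the list of IL-1, IL-17, TNF and IL-6 inputs 6 of 15 rose and 1 fell (4 and 0 without the 3 libraries), and the one that fell was Lif. Tnf, an inducer of the ligand genes, averaged 9.68 ± 2.36 FPKM in mutant anti-PD-1 and 3.18 ± 1.72 in mutant PBS tumours (SD, n = 5; log2 fold change 1.43, adjusted p = 0.000191). Il18 rose by 1.74, the decoy receptor gene Il1r2 by 1.35, and Il17a was listed at 0 in all 20 tumours. Of the genes listed with the inflammasome, which processes pro-interleukin-1 beta, 7 of 8 rose and 0 fell (5 of 7 without the 3 libraries), with Nlrc4 at 1.17 (adjusted p = 6e-05), Pycard at 1.28 and Casp4 at 0.90. Il18 belongs to this list as well and is counted in both. Of the NF-kappaB feedback genes 7 of 17 rose, led by the adhesion molecule gene Icam1 at 2.26 (adjusted p = 4.61e-05) and Birc3 at 1.71, and 2 fell, Nfkb2 and the cyclooxygenase gene Ptgs2 (6 rose and 0 fell without the 3 libraries).

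Among other CXC chemokines, receptors and scavengers 2 of 4 rose with anti-PD-1 in mutant tumours and 0 fell (1 rose and 2 fell without the 3 libraries). Those that rose over all libraries were Cxcl12 and Cxcr4, a ligand and receptor pair that retains neutrophils in the marrow and acts apart from CXCR2. Without the 3 libraries at least 1 of this pair no longer passed as a rise. The median log2 fold change of the 4 tested genes turned from 0.45 over all libraries to -0.80 without the 3. The 7 genes of the list summed to 501 and 137 FPKM in mutant anti-PD-1 replicates 1 and 2. In replicates 3 to 5 they summed to 27.3 to 41.7 FPKM, and in mutant PBS tumours to 43.5 to 91.0. Ppbp, a platelet ligand of CXCR2, was at -0.81 (adjusted p = 0.258). Of the growth factor and granulopoiesis genes 4 of 8 rose (4 without the 3 libraries), namely Csf2ra, Csf2rb2, Csf1r and Il3ra, which encode receptor chains rather than ligands. Csf1r is also 1 of the macrophage markers and is counted in both lists. Of the alarmin partners and receptors 3 of 11 rose (3 without the 3 libraries), Tlr2 at 1.70, Myd88 at 0.97 and Ly96 at 0.83, while Tlr4, a receptor for S100A8, was at 1.34 (adjusted p = 0.0825).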

How the data were processed

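RNA of 20 tumours was sequenced, 5 per group. The authors deposited a table for each library, and its values were read as FPKM, since Cuffnorm is named in the submitters' processing notes and the values are fractional, at least 0 and of unequal sums; the file headers name no unit. Per the submitters' processing notes, mm10, STAR 2.5, FastQC and a differential expression package were also used, with no role stated. For annotation, strandedness and multiply matching reads the sources used here give nothing, and depth is unknown, so no counting interval is given. Identifiers were matched to symbols with GENCODE vM21.

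Values were analysed as log2(FPKM + 1), which understates the change of low genes. Genes that reached 1 FPKM in 5 or more libraries (13982) entered a fit by limma 3.58.1 in R 4.3.3, over all 20 libraries, with 4 group means, a term for identifier style and a variance prior that follows the mean level. P-values were adjusted by Benjamini-Hochberg over all genes tested, threshold 0.05. The style term passed for 0 of the 9 genes. Fits within 1 style used at least 3 libraries in the filter. Correlations used 100000 permutations within groups (Python 3.11.15, numpy 2.4.6). The fit was tested on simulated data.

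The 10 genes and the lists were chosen with earlier results of these data known. Named genes are the 10, up to 4 per list with the smallest p, markers whose level bears on a result, and the 3 nearest genes of each; Sorl1, Il17a, the genes that did not pass, the primary granule genes, Csf2, Ackr1, Il1rn and the genes that fell were named after their values were seen. The labels give mice per group, and replicate numbers follow deposition order. Alternatives were pseudocount, filter, scaling, trend, weights, covariates, subsets of libraries and leaving out each tumour.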

Additional observations from a re-analysis of the deposited data

Results flagged for a closer look

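Csf3r responded differently to anti-PD-1 in the 2 tumour types. The difference of the responses, mutant minus vector, was a log2 value of 2.39 ± 0.538 (SE, adjusted p = 0.0113), from 2.42 in mutant tumours and 0.03 in vector tumours. Over all genes tested, the difference passed for 9.35%, and 7.4% were higher. All 5 mutant anti-PD-1 tumours were above all 5 mutant PBS tumours, which held for 11.1% of all genes. The vector groups overlapped, where 0.279% of all genes were higher and 0.501% lower without overlap. The difference for Csf3r passed in 11 of 12 alternative fits and in all 20 fits that left out 1 tumour. It did not pass when the 3 libraries that stand apart were left out (adjusted p = 0.0986). Within the 40 sets of 5 tumours, no single tumour lay far enough from the next one of its group to be singled out. That rule looks at 1 tumour at a time and cannot single out 2 that stand together, such as mutant anti-PD-1 replicates 1 and 2.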

How the results depend on the processing

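Csf3r passed in mutant against vector tumours under anti-PD-1 and with anti-PD-1 in mutant tumours under all 12 alternatives and in every fit that left out 1 tumour. The other counts moved with the libraries used. Of the 9 genes, 4 passed in mutant against vector under anti-PD-1, but 1 when the 3 libraries that stand apart were left out, 2 with a skeletal muscle term, 8 in M-style and 1 in number-only libraries, where 21.8%, 25.5%, 28% and 23.4% of all genes passed (32.9% over all libraries). In mutant tumours 3 passed, and 1, 1, 5 and 1 under those settings, beside 20.5%, 18.6%, 22.1% and 31.3% of all genes (30.5% over all libraries). For the difference of the responses 1 passed, 0 without the 3 libraries and 3 in M-style libraries, beside 0.775% and 7.78% of all genes (9.35% over all libraries). Under PBS 0 of 9 passed without the 3 libraries, where 12.2% of all genes did (1.45% over all libraries). Of 25 correlations 13 passed. In number-only libraries 0 passed, where the few arrangements within groups limit how low p can fall. There were also 0 in M-style libraries, 0 without the mutant anti-PD-1 group and 0 centred on group and style. The last 2 settings, the list counts without the 3 libraries and the correlations leaving out 1 tumour were chosen after seeing the data. The causes were not tested. Leaving out 1 tumour gave 3 to 7, 1 to 6 and 1 to 3 genes and 11 to 16 correlations, with 0 under PBS and 0 in vector tumours.

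Every fold change that turned round was one that did not pass over all libraries. Mutant against vector under PBS turned in number-only libraries for Cxcl1 (-0.13), Cxcl2 (-1.25), Cxcl3 (-0.82), Cxcr2 (-0.60), Csf3r (-0.59), S100a8 (-1.38), S100a9 (-1.45) and Il1b (-0.55). It turned with array weights for Cxcl2 (-0.13), Cxcr2 (-0.11), S100a8 (-0.075) and S100a9 (-0.073), and with the muscle term for Cxcr2 (-0.10) and Csf3r (-0.0028). Under anti-PD-1 Cxcl3 turned without the 3 libraries (-0.23). Anti-PD-1 against PBS in vector tumours turned for Cxcl1 with array weights (0.30), quantile scaling (0.042), number-only libraries (0.050) and without the 3 libraries (0.45), and for Cxcl3 in M-style libraries (0.42). It turned for Csf3r with TPM scaling (-0.061) and the muscle term (-0.33). S100a8 turned with TPM scaling (-0.0096), array weights (-0.28), the muscle term (-0.27) and number-only libraries (-1.08), S100a9 with array weights (-0.19), the muscle term (-0.11) and number-only libraries (-1.15), and Il1b with the muscle term (-0.054) and number-only libraries (-0.086). In mutant tumours Cxcl1 turned in M-style libraries (-0.89) and with the muscle term (-0.0035), and Cxcl3 in the same 2 settings (0.77 and 0.042). Cxcl2 (-0.56), S100a8 (-0.14) and S100a9 (-0.24) turned without the 3 libraries. The difference of the responses turned without the 3 libraries for Cxcl2 (-0.18), Cxcl3 (-0.81), S100a8 (-0.17) and S100a9 (-0.52), for Cxcl3 also with array weights (-0.12) and a pseudocount of 0.1 (-0.011), and for Cxcl1 in M-style libraries (-0.71).

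In M-style libraries r turned for Cxcl1 with Cxcr2 (-0.029), Csf3r (-0.020) and S100a8 (-0.27), and for Csf3r with Cxcl2 (-0.19), Cxcl3 (-0.48) and Csf3 (-0.021); centred on group and style, Cxcl3 with Csf3r was at -0.099. Of these pairs, Cxcl2 with Csf3r had passed over all 20 tumours. Among them, Cxcl1 with Cxcr2 ranged from -0.037 to 0.48 when 1 tumour was left out. Leaving out 1 tumour also spanned -0.089 to 0.28 for Cxcr2 in mutant against vector under PBS. In vector tumours it spanned -0.63 to 0.42 for Cxcl1, -0.56 to 0.052 for Cxcl3, -0.44 to 0.031 for Cxcr2, -0.25 to 0.26 for Csf3r, -0.23 to 0.50 for S100a8, -0.18 to 0.68 for S100a9 and -0.028 to 0.46 for Il1b. In mutant tumours it spanned -0.36 to 0.49 for Cxcl1 and -0.56 to 0.21 for Cxcl3, and for the difference of the responses -0.31 to 0.66 and -0.27 to 0.51. Depth is unknown, which limits what can be said of Csf3, Ly6g and the granule genes near 0. No paired analysis was possible because replicate numbers follow deposition order and pair no tumours.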

Other observations

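Csf2, the gene of a second granulocyte growth factor, averaged 2.40 ± 1.58 FPKM in mutant anti-PD-1 and 2.54 ± 1.26 FPKM in mutant PBS tumours, against 0.754 ± 0.480 FPKM in vector anti-PD-1 and 0.866 ± 0.855 FPKM in vector PBS tumours (SD, n = 5), and mutant against vector did not pass under anti-PD-1 or under PBS (limma adjusted p = 0.0657 and 0.211). Ackr1, a venular scavenger of the CXCR2 ligands, was between 0.203 and 8.25 FPKM in mutant anti-PD-1 tumours and at or under 0.534 FPKM in each of the other 15. Il1rn, the antagonist of interleukin-1, stood at 4.08 ± 1.62 FPKM in mutant anti-PD-1 and 2.68 ± 0.797 FPKM in mutant PBS tumours, with 3.30 ± 1.11 FPKM in vector anti-PD-1 and 3.31 ± 1.38 FPKM in vector PBS tumours (SD, n = 5), and anti-PD-1 against PBS in mutant tumours did not pass (limma adjusted p = 0.247).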
